A study of Mus musculus with 16 samples.

Results

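The 10 genes described here encode the enzymes that oxidise ethanol to acetaldehyde, acetaldehyde to acetate, and acetate to acetyl-CoA: Adh1, Adh4, Adh5, Adh6a, Adh7, Aldh1a1, Aldh1b1, Aldh2, Cat and Acss2. They were chosen by name, as the rows of the count table whose Ensembl identifiers carry these symbols, and all 10 were found among the 21965 genes of the table. RNA from the terminal ileum of 16 male C57BL/6 mice had been sequenced, with 1 library per mouse. The mice were wild-type (WT) or carried 1 copy of the fat-1 transgene (labelled Fat1+/-), a C. elegans n3 desaturase that makes n3 fatty acids from n6 fatty acids and is active in all tissues, so that no cell type was singled out. They were littermates, 8 to 10 weeks old at the start, and were kept for 6 weeks on a Lieber-DeCarli liquid diet. In the EtOH groups this diet held ethanol, at 6% for the last 3 weeks, and in the pair-fed (PF) groups maltose dextrin gave the same energy. The PF groups held 4 WT and 4 fat-1 mice and the EtOH groups 3 WT and 5 fat-1 mice. The transgene itself was not analysed here, so the genotype labels were not checked on the counts.

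Ethanol is oxidised to acetaldehyde by the cytosolic alcohol dehydrogenases (ADH), by cytochrome P450 2E1 and, in peroxisomes, by catalase, which uses hydrogen peroxide to do so. Acetaldehyde is then oxidised to acetate by the aldehyde dehydrogenases (ALDH), above all by the mitochondrial enzyme encoded by Aldh2. The ADH and ALDH reactions turn NAD into NADH. In the gut the same enzymes also act on retinoids and on aldehydes from lipids, and the level of several of them differs along the small and large intestine.

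The 5 ADH genes lie side by side on chromosome 3 (GRCm38), all on the plus strand, in the order Adh7, Adh1, Adh6a, Adh4 and Adh5, with Adh6b between Adh6a and Adh4. Together they span 237.74 kb, from 138217760 to 138455499. Aldh1a1 lies on chromosome 19, Aldh1b1 on chromosome 4, Aldh2 on chromosome 5, and Cat and Acss2 on chromosome 2. Of the 10 genes, 9 have a promoter window in RefSeq (GRCm38.p6), which holds 250 bases before the start of transcription and 50 after it. The windows of Adh6a, Adh1 and Adh4 are shown because these 3 neighbours passed the test for a fall with EtOH in fat-1 mice, and their letters differ. All 3 are on the plus strand, in lower case with matches to the searched motifs in capitals. They were read at chr3:138313036-138313335 for Adh6a, at chr3:138277335-138277634 for Adh1 and at chr3:138415247-138415546 for Adh4. The Adh1 window lies inside the longer gene model of the annotation used for the counts, which starts at 138260991.
Adh6a: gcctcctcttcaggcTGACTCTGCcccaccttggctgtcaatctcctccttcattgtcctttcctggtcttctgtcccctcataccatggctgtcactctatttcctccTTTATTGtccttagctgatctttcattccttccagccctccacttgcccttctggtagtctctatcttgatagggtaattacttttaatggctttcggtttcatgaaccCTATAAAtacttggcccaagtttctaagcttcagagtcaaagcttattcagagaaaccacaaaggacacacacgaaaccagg
Adh1: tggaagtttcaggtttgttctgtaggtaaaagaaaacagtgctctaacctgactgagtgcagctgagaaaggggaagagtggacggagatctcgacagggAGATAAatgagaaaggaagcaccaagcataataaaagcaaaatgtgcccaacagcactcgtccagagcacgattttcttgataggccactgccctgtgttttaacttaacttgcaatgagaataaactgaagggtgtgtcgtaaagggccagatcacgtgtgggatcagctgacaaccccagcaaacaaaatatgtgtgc
Adh4: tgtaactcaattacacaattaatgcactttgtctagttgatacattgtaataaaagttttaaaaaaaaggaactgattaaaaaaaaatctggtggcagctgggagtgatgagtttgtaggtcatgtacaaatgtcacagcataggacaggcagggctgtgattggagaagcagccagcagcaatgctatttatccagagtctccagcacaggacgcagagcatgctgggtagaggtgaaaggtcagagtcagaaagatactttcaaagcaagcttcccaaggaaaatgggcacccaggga

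The letters searched, on both strands, were AGATAA for GATA factors, CAAAGTCCA for HNF4, GTTAATNAT for HNF1, TTTATNG for CDX factors and TGACNNNGC for NRF2. The Adh6a window holds the CDX letters at -141 and, on the minus strand, at -32, and the NRF2 letters at -235. The Adh1 window holds the GATA letters at -150, and the Adh4 window holds none of the 5 motifs. Of 20146 promoter windows of 16516 genes, 9.42% hold the CDX letters, 13.1% the NRF2 letters, 9.43% the GATA letters, 0.472% the HNF4 letters and 0.710% the HNF1 letters. Among the other genes, Adh7 holds the CDX letters at 19, Acss2 the NRF2 letters at -107 and a second window of Aldh1a1 the GATA letters at -32. Windows of Adh5, Cat and Aldh1b1 hold none. Such a match is a description of the letters and is not evidence that a factor binds there.

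Between 8422645 and 11438539 reads per library were counted on genes (median 9797262), and levels are given as CPM, the counts of a gene brought to equal library totals with TMM scaling. On that scale 3 counts were 0.246 to 0.421 CPM. Several libraries differed in the part of the gut whose genes they held, as read from the mean log2(CPM + 0.5) of marker lists. The lists were chosen with earlier results of these data known. Lct, Gata4 and Apoa4 of the proximal list are among the largest falls with EtOH in the paper. Car1 of the large intestine list is its largest rise with EtOH in fat-1 mice. A difference of these scores between diets is therefore not an independent measure of gut region. The score of 12 proximal small intestine genes was 5.06 to 7.50 in WT PF, 7.13 to 9.11 in fat-1 PF, 2.91 to 3.00 in WT EtOH mice, and it ran from 0.973 to 3.58 in the fat-1 EtOH group. Of the PF mice, fat-1 PF mice 2 and 4 had the highest proximal scores (9.11 and 9.05) and the lowest scores of 7 ileum genes (5.29 and 4.53). The score of 7 large intestine genes was 6.54 and 6.43 in fat-1 EtOH mice 3 and 4 and 5.51 in WT EtOH mouse 2, and 0.874 to 2.88 in the other 13 mice. A score of 7 smooth muscle genes was 6.90 to 7.50 in PF mice and 7.86 to 8.98 in EtOH-fed mice. The summed level of 8 genes of all epithelium was 13819 to 19113 CPM in PF mice and 10433 to 17929 CPM in EtOH-fed mice, with the 3 lowest values in fat-1 EtOH mice 3 to 5. The score of 6 B cell genes was 6.31 in fat-1 EtOH mouse 5 and at most 4.02 in the other 15 mice. The part of these 3 lists in the results was not tested. Liver genes, whose tissue is rich in these enzymes, had a summed level of 3.06 to 9.16 CPM over 5 genes in every library. The proximal scores of PF and EtOH-fed mice do not overlap, so that a change of an enzyme gene with EtOH and one with the share of proximal tissue or of proximal gene activity cannot be told apart in these libraries. In whole tissue, fewer cells of a type and less RNA per cell cannot be told apart either. The libraries of all PF mice carry lower numbers (1 to 8) than those of the EtOH-fed mice (9 to 16), and order and diet cannot be told apart.

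In fat-1 mice, EtOH went with lower levels of 3 ADH genes and of Cat, whereas none of the acetaldehyde-oxidising genes Aldh1a1, Aldh1b1 and Aldh2 passed the test. Over all genes tested in this comparison 37.4% were called and 18.8% were called lower. The falls had log2 fold changes of -6.00 for Adh6a, -6.98 for Adh4, -3.66 for Adh1 and -1.15 for Cat. In WT mice the same 4 genes had log2 fold changes of -3.25, -5.21, -1.72 and -0.50, and none passed, although the mice of the 2 diets did not overlap for Adh6a and Cat. For Adh1 they overlapped in both genotypes. Between genotypes no enzyme gene passed the test on either diet. With all libraries, 9 of the 10 genes had enough counts for the test across all genes, and Adh7, with a mean of 7.0 counts per library, did not. Adh4 entered that test through the PF libraries alone, so that its difference with EtOH was not independent of the filter.

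**Figure D1:**
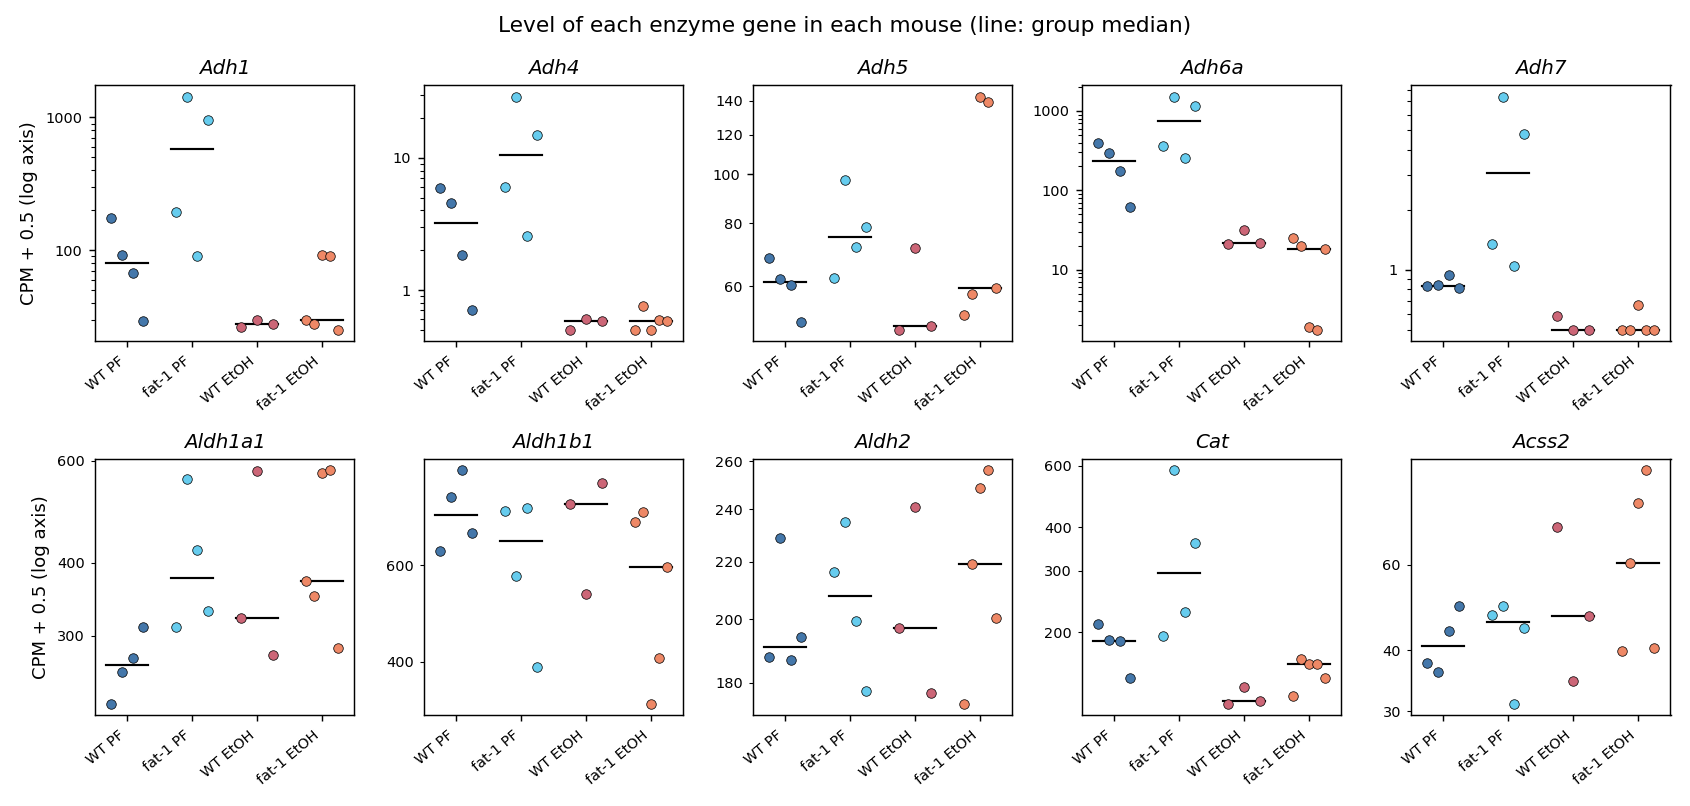
Level of each of the 10 enzyme genes in each mouse, as CPM + 0.5 on a log axis whose range differs between panels; points are mice (4 and 4 on the PF diet, 3 and 5 on the EtOH diet, WT first) and lines are group medians. Adh6a lies between 61.8 and 1518 CPM in PF mice and between 1.25 and 31.2 CPM in EtOH-fed mice, while Aldh2 lies between 173 and 256 CPM over all 16 mice.

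Adh6a, an alcohol dehydrogenase of the ADH6 type whose natural substrate is not settled, changed over the widest range among the abundant genes of the group. In WT PF mice 1 to 4 it stood at 396, 293, 175 and 61.8 CPM, and in the 3 WT EtOH mice at 20.9, 31.2 and 21.3 CPM. In fat-1 PF mice 1 to 4 it stood at 363, 1518, 257 and 1147 CPM, and in fat-1 EtOH mice 1 to 5 at 24.8, 19.1, 1.39, 1.25 and 17.5 CPM. No EtOH-fed mouse reached the lowest PF mouse of its genotype. Of the 3 mice with high large intestine scores, fat-1 EtOH mice 3 and 4 were an order of magnitude below the other EtOH-fed mice, whereas WT EtOH mouse 2 had the highest level of all EtOH-fed mice. In fat-1 mice the log2 fold change was -6.00 (SE 0.92, adjusted p = 0.000482, quasi-likelihood test of edgeR, adjusted by Benjamini-Hochberg), and the exact two-sided permutation test gave p = 0.0159, the smallest that 5 against 4 mice allow. In WT mice it was -3.25 (SE 1.00, adjusted p = 0.195 by edgeR), and the exact permutation p was 0.0571, the smallest that 3 against 4 allow. Without the 3 EtOH libraries with large intestine genes the change was -5.29 (adjusted p = 0.00211) in fat-1 and -3.46 (adjusted p = 0.0919) in WT mice. Leaving out also fat-1 PF mice 2 and 4, it was -3.91 (adjusted p = 0.0161) in fat-1 and -3.45 (adjusted p = 0.0418, edgeR) in WT mice, so that the call in WT mice depends on which libraries share the fit.

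The level of Adh6a followed the proximal score among PF mice. In WT PF mice, 396, 293, 175 and 61.8 CPM went with proximal scores of 7.50, 6.89, 6.69 and 5.06. In fat-1 PF mice, 1518, 1147, 363 and 257 CPM went with scores of 9.11, 9.05, 7.58 and 7.13. The order was thus the same in both PF groups, which had no ethanol. In the 6 EtOH-fed mice with scores of 2.78 to 3.58, Adh6a stayed between 17.5 and 31.2 CPM without following that order. The 2 mice with scores of 0.973 and 1.08 had the lowest levels, 1.39 and 1.25 CPM.

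**Figure D2:**
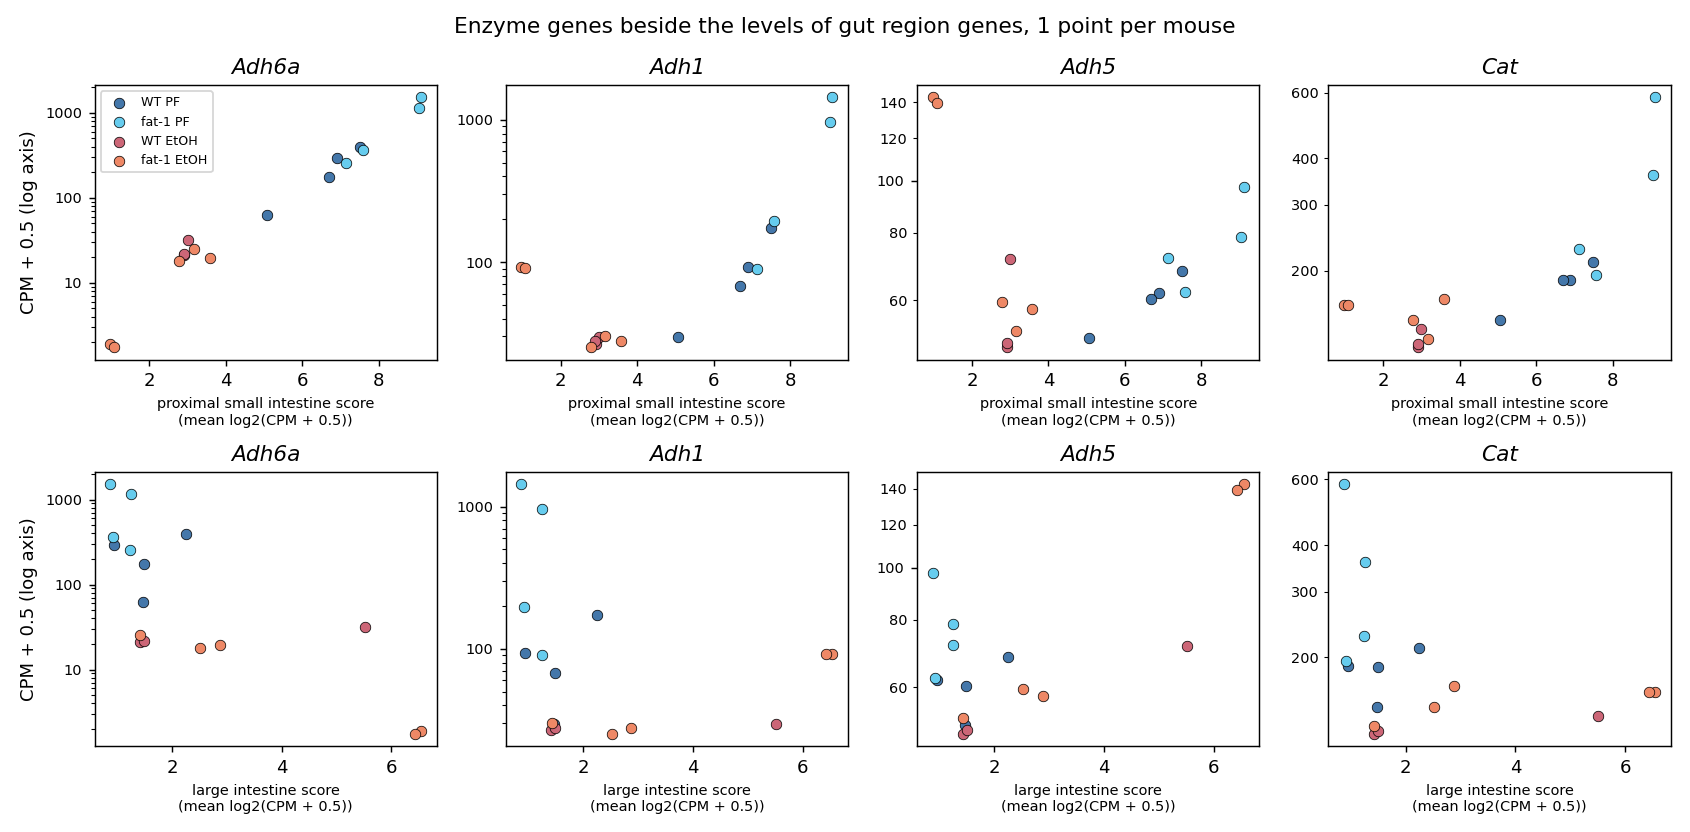
Levels of Adh6a, Adh1, Adh5 and Cat (CPM + 0.5, log axis) in each mouse against the score of 12 proximal small intestine genes (top) and of 7 large intestine genes (bottom), each score a mean of log2(CPM + 0.5); colours mark the 4 groups. Adh6a is highest in the 2 PF mice with the highest proximal scores and lowest in the 2 fat-1 EtOH mice at 0.973 and 1.08. In those 2 fat-1 EtOH mice Adh5 (142 and 139 CPM) is at its highest. Adh1 (92.1 and 90.7 CPM) is high there only beside the other EtOH-fed mice.

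Adh1 encodes the class I enzyme that carries most ethanol oxidation in liver. It stood at 173, 92.2, 67.2 and 29.0 CPM in WT PF mice and at 26.1, 29.2 and 27.3 CPM in WT EtOH mice. The 4 fat-1 PF mice had 195, 1435, 89.4 and 960 CPM, and the 5 fat-1 EtOH mice 29.6, 27.2, 92.1, 90.7 and 24.7 CPM. WT PF mouse 4 lay among the EtOH-fed mice, and fat-1 EtOH mice 3 and 4 lay just above fat-1 PF mouse 3, so that the diets overlapped in both genotypes. The log2 fold change was -3.66 in fat-1 mice (SE 0.75, adjusted p = 0.00249 by edgeR; exact permutation p = 0.0476) and -1.72 in WT mice (SE 0.85, adjusted p = 0.380 by edgeR). Without the 3 EtOH libraries with large intestine genes the change in fat-1 mice was -4.58 (adjusted p = 0.00655, edgeR). Without fat-1 PF mice 2 and 4 as well, it was -2.38 (adjusted p = 0.0395, edgeR). An antisense gene, Gm16559, overlaps the exons of Adh1, and whether the counting used the read strand is not given in the sources used here.

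Adh4 encodes the class II enzyme, which in liver adds to ethanol oxidation at high concentrations and also oxidises retinol. Its WT PF levels were 5.35, 4.07, 1.33 and 0.208 CPM, and its fat-1 PF levels 5.51, 28.5, 2.05 and 14.5 CPM. In the 8 EtOH-fed mice it reached at most 0.255 CPM, or 3 counts, the number taken as the floor. Over the groups this was 99 counts in WT PF against 2 in WT EtOH, a ratio of levels of 44.1 (95% exact interval 11.9 to 369), and 388 counts in fat-1 PF against 5 in fat-1 EtOH, a ratio of 139 (59.1 to 431). These intervals cover counting error only, not the spread between mice. Groups on the 2 diets did not overlap in either genotype, but in WT mice the nearest libraries held 2 counts (WT PF mouse 4) and 1 count, which is within counting error. The fitted log2 fold change in fat-1 mice was -6.98 (SE 1.04, adjusted p = 0.000431 by edgeR), a value that depends on the fit because most EtOH libraries held 0 or 1 count. Without the 3 EtOH libraries with large intestine genes and fat-1 PF mice 2 and 4 it was -4.88 (adjusted p = 0.0350, edgeR).

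Adh7, the class IV enzyme known from stomach and oesophagus, was below 1 CPM in all but 2 mice. It was at 0.312 to 0.444 CPM in WT PF mice, at 0.848, 6.88, 0.547 and 4.30 CPM in fat-1 PF mice and at 0 to 0.164 CPM in EtOH-fed mice. Both mice above 1 CPM were again fat-1 PF mice 2 and 4. Summed over groups, 13 counts in WT PF stood against 1 in WT EtOH (ratio 11.6, 95% exact interval 1.74 to 492), and 96 in fat-1 PF against 2 in fat-1 EtOH (ratio 86.0, 23.2 to 720). In WT mice this was 3 or 4 counts per PF mouse against 0 or 1 per EtOH-fed mouse, so that their lack of overlap lay at the limit of counting. In fat-1 PF mice 1 to 4 it was 8, 49, 4 and 35 counts. Both intervals cover counting error only, not the spread between mice. On the PF diet the nearest mice of the 2 genotypes both had 4 counts and were set apart by library scaling alone. An antisense gene, 0610031O16Rik, overlaps its exons. Without the 3 EtOH libraries with large intestine genes Adh7 passed the count filter. Its log2 fold change in fat-1 mice was then -7.88 (adjusted p = 0.00479, edgeR). It entered that fit through the high counts of fat-1 PF mice 2 and 4, so that this change was not independent of the filter.

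Adh5, the class III enzyme, acts mainly on formaldehyde bound to glutathione and is found in most cells. WT PF mice had 67.6, 61.3, 59.8 and 50.5 CPM, and WT EtOH mice 48.6, 71.0 and 49.4 CPM. In fat-1 PF mice it stood at 61.8, 97.0, 71.3 and 78.1 CPM and in fat-1 EtOH mice at 52.1, 57.3, 142, 139 and 59.1 CPM. The 2 highest values belonged to fat-1 EtOH mice 3 and 4, and the other 3 mice of that group lay below all fat-1 PF mice. The log2 fold change with EtOH in fat-1 mice was 0.22 (SE 0.30, adjusted p = 0.568 by edgeR). Without the 3 EtOH libraries with large intestine genes it was -0.43 and passed the test (adjusted p = 0.0318), and without fat-1 PF mice 2 and 4 as well it was -0.23 (adjusted p = 0.210 by edgeR). In WT mice it was -0.09 (95% interval -0.81 to 0.63).

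Cat encodes catalase, which breaks down hydrogen peroxide in peroxisomes and can oxidise ethanol on the way. It stood at 211, 189, 188 and 147 CPM in WT PF mice and at 124, 139 and 127 CPM in WT EtOH mice. Levels in fat-1 mice were 195, 582, 228 and 360 CPM on the PF diet and 131, 167, 161, 161 and 147 CPM on the EtOH diet. The diets did not overlap in either genotype, although in WT mice the gap between the nearest mice was small. In fat-1 mice the log2 fold change was -1.15 (SE 0.24, adjusted p = 0.00262 by edgeR; exact permutation p = 0.0159), and in WT mice -0.50 (SE 0.28, adjusted p = 0.425). Without the 3 EtOH libraries with large intestine genes the change in fat-1 mice was -1.17 and passed (adjusted p = 0.0151, edgeR). Without fat-1 PF mice 2 and 4 as well, it was -0.50 and no longer passed (adjusted p = 0.0539, edgeR).

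Of the genes of the acetaldehyde step, none passed the test with EtOH in either genotype. Aldh2, the mitochondrial enzyme with the highest affinity for acetaldehyde, was at 186 to 228 CPM in WT PF, 177 to 234 in fat-1 PF, 176 to 240 in WT EtOH mice, with 173 to 256 CPM in the fat-1 EtOH group. Its log2 fold change with EtOH was 0.04 in WT mice (95% interval -0.28 to 0.36) and 0.09 in fat-1 mice (-0.20 to 0.37), the narrowest intervals of the 9 tested genes. Aldh1b1, a second mitochondrial form that also marks intestinal crypt cells, stood at 637 to 895 CPM in WT PF, 390 to 763 in fat-1 PF, 532 to 849 in WT EtOH mice, with 335 to 752 CPM in the fat-1 EtOH group. Its lowest values, 335, 390 and 405 CPM, were those of fat-1 EtOH mouse 3, fat-1 PF mouse 4 and fat-1 EtOH mouse 4. The changes with EtOH were -0.07 (95% interval -0.69 to 0.56) in WT and -0.14 (-0.69 to 0.40) in fat-1 mice, on the log2 scale.

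Aldh1a1, a cytosolic enzyme that makes retinoic acid and also takes acetaldehyde, was at 229, 259, 274 and 309 CPM in WT PF mice and at 310, 556, 421 and 330 CPM in fat-1 PF mice, and these groups just failed to overlap. EtOH-fed mice had 321, 576 and 277 CPM (WT) and 372, 350, 570, 577 and 285 CPM (fat-1). The 3 highest EtOH values were those of the 3 mice with large intestine genes. The log2 fold change with EtOH was 0.55 in WT mice (SE 0.29, adjusted p = 0.406 by edgeR) and 0.09 in fat-1 mice (95% interval -0.46 to 0.64). Of its 75-base windows, 1.01% are shared with its near copy Aldh1a7. Acss2, which turns acetate into acetyl-CoA in cytosol and nucleus, stood at 35.7 to 48.9 CPM in WT PF, 30.6 to 48.9 in fat-1 PF, 34.1 to 71.1 in WT EtOH mice, with 39.3 to 93.2 CPM in the fat-1 EtOH group. The highest levels, 93.2 and 80.0 CPM, were again in fat-1 EtOH mice 4 and 3. Its log2 fold change with EtOH was 0.55 in fat-1 mice (95% interval -0.03 to 1.13) and 0.29 in WT mice (-0.36 to 0.94), and 3 genes on the other strand overlap its exons.

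**Figure D3:**
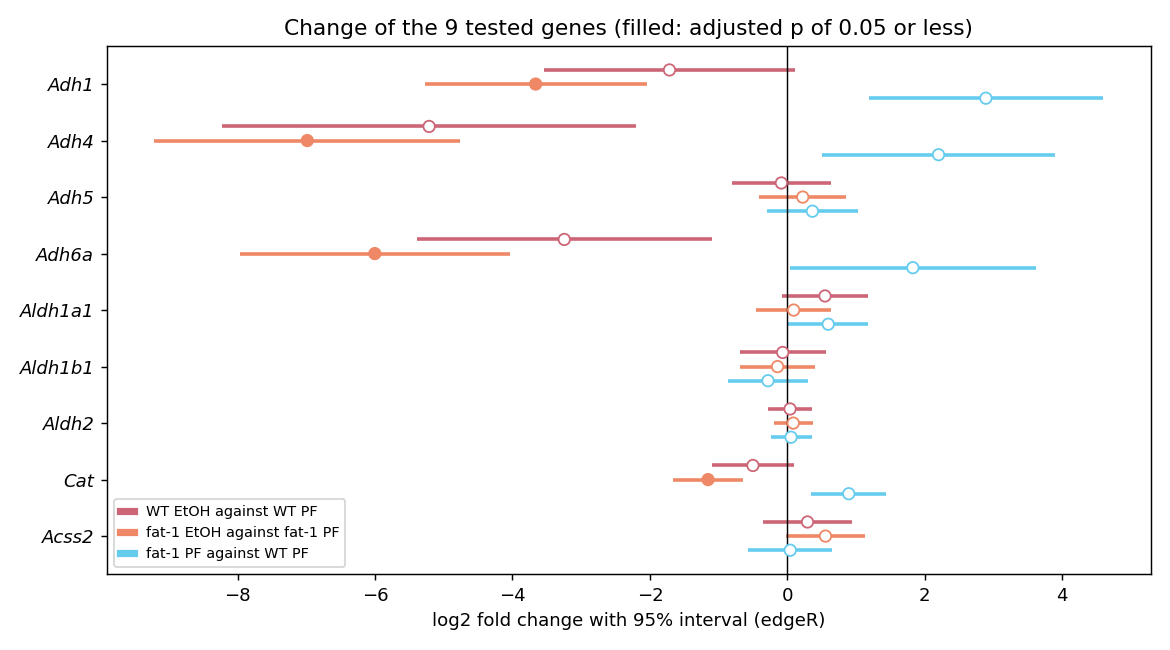
Log2 fold changes of the 9 tested genes with 95% intervals from edgeR, for WT EtOH against WT PF, fat-1 EtOH against fat-1 PF and fat-1 PF against WT PF; filled points have an adjusted p of 0.05 or less. Filled points are Adh1, Adh4, Adh6a and Cat in fat-1 EtOH against fat-1 PF, at -3.66, -6.98, -6.00 and -1.15; the ALDH genes and Acss2 lie between -0.28 and 0.59 in the 3 comparisons, with open points.

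Over all genes, 37.4% of the 13811 tested genes were called between the diets in fat-1 mice (2578 higher and 2592 lower on EtOH). There, 4 of the 9 tested enzyme genes were called, all lower, beside 18.8% of all genes called lower. Adh4 is one of the 4 and entered the test through the PF libraries alone, and without it the count was 3 of 8. The median log2 fold change of these 8 genes was -0.03, against 0.05 over all genes. Upper-quartile scaling moved the median of all genes to 0.20 and the calls to 3906 higher and 1753 lower, and called the same 4 enzyme genes. In WT mice 0.0796% of all genes were called (11 genes), and 0 of the 9 enzyme genes by edgeR, with 2 of 9 at an unadjusted p under 0.05 (Adh4 and Adh6a, so that without Adh4 it was 1 of 8), beside 1953 of 13811 over all genes. DESeq2 called Adh4 and Adh6a there, or 1 of 8 genes without Adh4, where it called 1.77% of all genes. For limma voom, which called Adh6a and Cat, that share was 20.3%, so that its 2 of 9 genes lay near the share of all genes. Single mice were also compared for overlap, which takes no estimate of spread from the other groups. EtOH-fed mice lay wholly below PF mice for Adh6a and Cat in both genotypes, and also for Adh4 and Adh7, where the separation in WT mice lay at the limit of counting. Of all tested genes, which do not include Adh7, 12.1% in WT and 13.4% in fat-1 mice lay wholly lower on EtOH. The average of the 2 EtOH effects called the same 4 genes, or 3 of 8 without Adh4, where 35.9% of all genes were called and 17.6% were called lower, with log2 fold changes of -2.69 for Adh1 (SE 0.58), -6.10 for Adh4 (SE 0.87), -4.62 for Adh6a (SE 0.72) and -0.83 for Cat (SE 0.19).

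The second question was whether the EtOH effect differed between genotypes. The interaction term was -2.76 for Adh6a (adjusted p = 0.595 by edgeR), -1.95 for Adh1 (SE 1.07), -1.77 for Adh4 (SE 2.76) and -0.65 for Cat (SE 0.37), on the log2 scale. None of the 9 genes was called, where 0% of all genes were, and 1 had an unadjusted p under 0.05, beside 1141 of 13811 genes; DESeq2 and limma voom also called 0. Without the 3 EtOH libraries with large intestine genes alone, the term was -1.83 for Adh6a, -2.83 for Adh1 (unadjusted p = 0.0400 and adjusted p = 0.819 by edgeR), -0.95 for Adh4 and -0.62 for Cat. Without the 5 libraries named above, it was -0.46 for Adh6a and -0.63 for Adh1, and turned to 0.74 for Adh4 and 0.04 for Cat. A larger EtOH effect in fat-1 than in WT mice was therefore not shown for any of these genes.

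On the PF diet, the comparison of fat-1 with WT mice called 0 of the 9 genes, where 0% of all genes were called by edgeR. At an unadjusted p under 0.05 there were 5 of the 9 (Adh1, Cat, Adh4, Aldh1a1 and Adh6a), all higher in fat-1 mice, beside 1758 of 13811 genes, and DESeq2 called Adh1, with 1.06% of all genes. The log2 differences were 2.89 for Adh1 (SE 0.80, adjusted p = 0.187), 2.20 for Adh4 (SE 0.79), 1.83 for Adh6a (SE 0.84), 0.89 for Cat (SE 0.26) and 0.59 for Aldh1a1 (SE 0.27). Without fat-1 PF mice 2 and 4 and the 3 EtOH libraries with large intestine genes, they fell to 0.65 for Adh1, 0.48 for Adh4, 0.41 for Adh6a and 0.19 for Cat, while that of Aldh1a1 went from 0.59 to 0.43 (SE 0.17, adjusted p = 0.908 by edgeR). The higher mean levels of Adh1, Adh4, Adh6a and Cat in fat-1 PF mice thus rested mostly on the 2 mice with the highest proximal scores. Of the 9 tested genes 1, Aldh1a1, was wholly higher in single fat-1 mice, beside 4.25% of all tested genes. Its nearest mice stood at 309.4 (WT) and 309.9 CPM (fat-1), and its exact permutation p was 0.0286, the smallest that 4 against 4 allow. Adh7, which was not tested across genes, did not overlap either, but its separation is within counting error, as its counts above show. The differences were 0.36 for Adh5, -0.28 for Aldh1b1, 0.05 for Aldh2 and 0.04 for Acss2, none past the test. The fat-1 PF mice serve in this comparison and in that of EtOH in fat-1 mice, and the WT PF mice in this one and in that of EtOH in WT mice, so that the comparisons are not independent.

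Among EtOH-fed mice, the genotypes did not differ past the test in any of the 9 genes (0 called by edgeR, DESeq2 and limma voom, and 0 at an unadjusted p under 0.05), where 0.00724% of all genes were called by edgeR and by limma voom and 0.0362% by DESeq2. All 10 genes overlapped between the groups, where 2.45% of all genes did not. The log2 differences of fat-1 from WT EtOH mice were 0.94 for Adh1 (95% interval -0.78 to 2.66), 0.68 for Adh5 (-0.02 to 1.38) and -0.93 for Adh6a (-2.75 to 0.89), intervals that leave room for large differences. Without the 3 EtOH libraries with large intestine genes they were 0.02 for Adh1, 0.19 for Adh5 and -0.04 for Adh6a, and the difference of Acss2 was -0.34, where it had been 0.30 with all libraries.

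Levels of different genes were compared per kb of exon. Aldh1b1 was the highest of the 10 genes in WT PF mice, at 328 ± 50.4 CPM per kb (SD, n = 4), in WT EtOH mice, at 313 ± 72.3 (n = 3), and in fat-1 EtOH mice, at 244 ± 81.0 (n = 5). In fat-1 PF mice Adh6a was the highest, at 323 ± 240.3 CPM per kb (n = 4), followed by Adh1 at 300.0 ± 287 and Aldh1b1 at 270 ± 76.8, which do not differ beyond their spread. The order of the first 2 turned with the length used: with the longest coding transcript Adh1 was at 449 ± 429 and Adh6a at 348 ± 259 CPM per kb in these mice. Adh4 and Adh7 were among the lowest in every group. The summed level of the 5 ADH genes was 46.9 to 249.7 CPM per kb in WT PF, 156 to 1279 in fat-1 PF, 28.9 to 38.5 in WT EtOH mice, with 29.0 to 68.1 in the fat-1 EtOH group.

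The make-up of the ADH family shifted with the diet. Adh6a was 61.0% ± 6.54 of the summed ADH level per kb in WT PF mice and 54.9% ± 8.25 in fat-1 PF mice (SD, n = 4 each), against 29.4% ± 2.09 in the WT EtOH group (n = 3) and 16% ± 14.1 in the fat-1 EtOH group (n = 5). Among the latter it was 0.805% and 0.735% in mice 3 and 4. Adh5 went the other way, from 10.4% ± 6.69 and 4.02% ± 3.31 in WT and fat-1 PF mice to 31.9% ± 1.85 and 35.8% ± 3.85 in the same genotypes on EtOH. Its level per kb was not higher in WT EtOH mice, at 10.4 ± 2.34 CPM per kb against 11.1 ± 1.31 in WT PF mice, so that its larger share there went with lower Adh6a and Adh1, not with a higher level of its own. The shares depend on the length used. With the longest coding transcript in place of all exons, that of Adh5 was 23.5% (WT) and 10% (fat-1) in PF mice and 54.6% and 57.4% in EtOH-fed mice, and that of Adh6a was 46.6% and 44.1% in PF mice and 16.1% and 8.53% in EtOH-fed mice, in the same order. The ratio of the 3 ALDH genes to the 5 ADH genes, both summed per kb, was 1.44 to 8.51 in WT PF, 0.299 to 2.92 in fat-1 PF, 10.3 to 15.4 in WT EtOH mice, with 4.54 to 14.5 in the fat-1 EtOH group. EtOH-fed mice thus lay above all PF mice of their genotype. With the longest coding transcript the ratios were 1.28 to 6.21, 0.299 to 2.61, 6.98 to 9.26 and 2.99 to 8.54 in the same order.

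**Figure D4:**
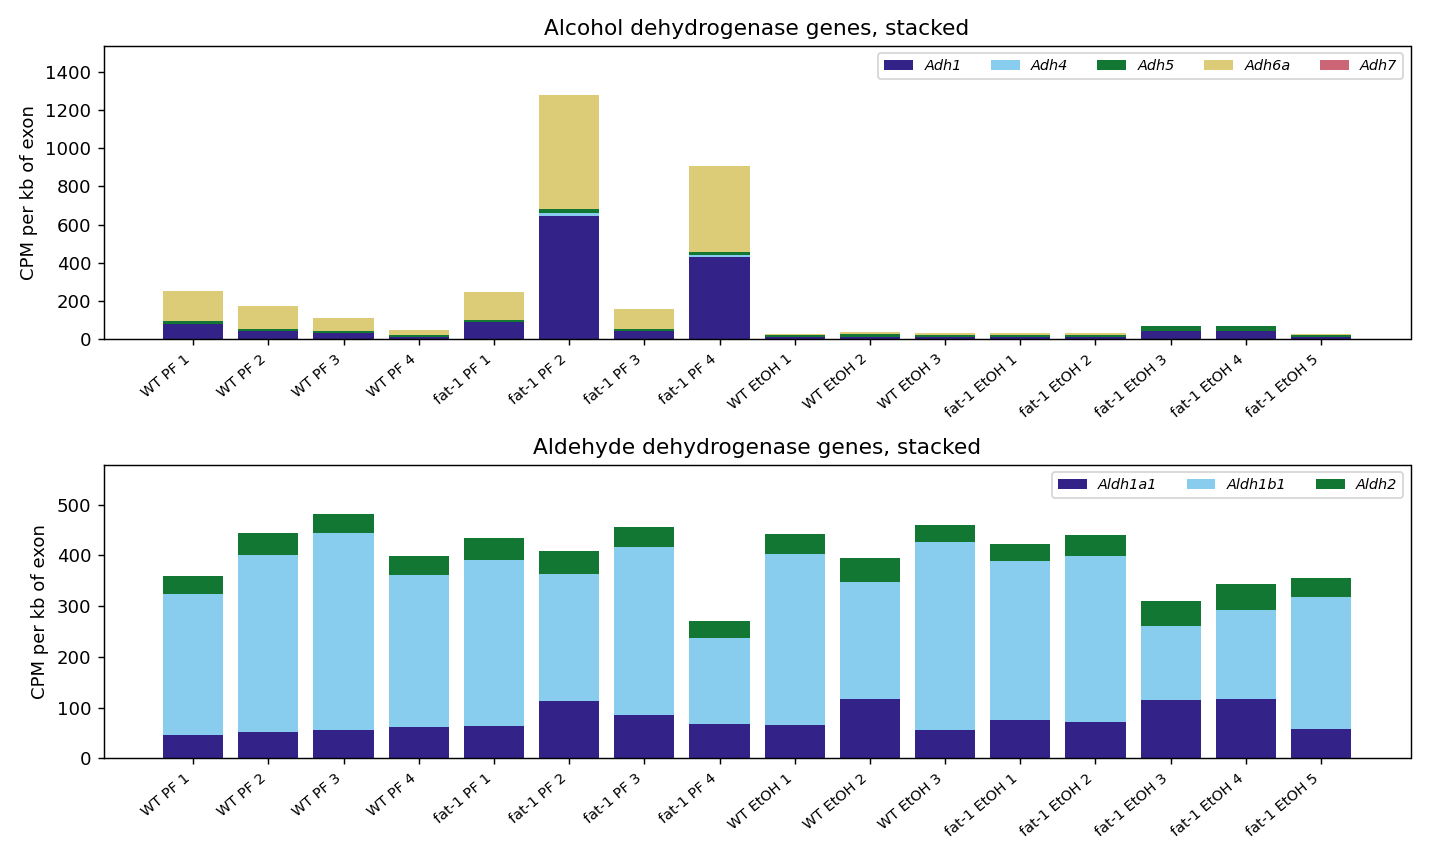
Stacked levels (CPM per kb of exon) of the 5 ADH genes (top) and the 3 ALDH genes (bottom) in each of the 16 libraries, in group order; the 2 panels have different scales and both start at 0. The ADH stacks run from 28.9 to 1279 with the tallest in fat-1 PF mice 2 and 4, where Adh6a and Adh1 make up nearly all of the level, whereas Aldh1b1 is the largest part of each ALDH stack.

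The rest of the pathway was read from 4 lists of genes that are not among the 10. Of 18 other aldehyde dehydrogenases, 15 were tested, and in fat-1 mice EtOH went with 2 higher and 9 lower (median log2 fold change -0.78). Over all genes 18.7% were called higher and 18.8% lower there, and the counts of all 4 lists stand beside these shares. Without the 5 libraries named above they were 585 higher and 1041 lower of 13716 genes. Aldh4a1, the mitochondrial enzyme of proline breakdown, fell by 2.46 on the log2 scale (SE 0.41), Aldh3b1, which acts on lipid aldehydes, by 1.15 (SE 0.23), Aldh1a7, the neighbour of Aldh1a1, by 1.05 (SE 0.19) and Aldh16a1 by 0.96 (SE 0.18). Aldh3b2 had the largest positive change, 2.15 (SE 0.77, adjusted p = 0.0398). It was at 8.53 and 8.65 CPM in fat-1 EtOH mice 3 and 4, while the other 3 mice of the group, at 0.510 to 1.54 CPM, lay among or near the fat-1 PF mice (0.421 to 1.48 CPM). Without those 5 libraries 4 of the list were lower and 0 higher by edgeR, with 8 at an unadjusted p under 0.05. For this list and those that follow, 4441 of the 13716 genes had an unadjusted p under 0.05 without these libraries. In WT mice 0 of the 15 were called by edgeR, with 3 at an unadjusted p under 0.05, and limma voom called 4, where it called 20.3% of all genes. Over all genes in WT mice, 1953 of 13811 had an unadjusted p under 0.05 by edgeR. The WT counts of the lists that follow stand beside that share too. The largest negative change there was -1.19 for Aldh4a1 and the largest positive one 0.58 for Aldh7a1.

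Of 10 other genes of alcohol, acetaldehyde and acetate metabolism, 9 were tested, and in fat-1 mice 5 were higher and 2 lower with EtOH (median 1.00). Acot12, which splits acetyl-CoA into acetate and CoA in the cytosol, had the largest change. It was the one pathway gene that edgeR called in WT mice with all libraries, where 0.0796% of all genes were called. Its level was 4.47 to 43.6 CPM in WT PF and 24.1 to 111 in fat-1 PF mice against 0.179 to 1.34 in WT EtOH mice, with 0.680 to 1.78 CPM in the fat-1 EtOH group, with no overlap. The log2 fold change was -4.92 in WT mice (SE 0.83, adjusted p = 0.0457) and -5.89 in fat-1 mice (SE 0.66, adjusted p = 0.000214, edgeR). Without WT EtOH mouse 1, or without WT EtOH mouse 3, edgeR called 0 genes in WT mice. DESeq2 and limma voom called other genes of the pathway in WT mice. Acly and Acaca, which make cytosolic acetyl-CoA and carry it into fatty acid synthesis, rose by 1.16 (SE 0.29) and 1.00 (SE 0.27) on the log2 scale in fat-1 mice, and Adhfe1, a mitochondrial hydroxyacid transhydrogenase, by 1.39 (SE 0.47). Akr1a1, an aldehyde reductase, fell by 0.72 (SE 0.15). Without the 5 libraries 1 gene was lower and 0 were higher by edgeR, with 5 at an unadjusted p under 0.05. In WT mice the largest positive change was 0.75 for Acss3, which was not called. Cyp2e1, named for its place in the pathway and not by the naming rule, was at 4.26 to 28.4 CPM in WT PF, 4.37 to 13 in fat-1 PF, 6.55 to 29.1 in WT EtOH mice, with 3.57 to 49.1 CPM in the fat-1 EtOH group. Its log2 fold change with EtOH was 0.33 in WT (95% interval -1.43 to 2.09) and 1.03 in fat-1 mice (-0.59 to 2.65), and was not called. In fat-1 EtOH mice 1 to 5 Cyp2e1 stood at 9.12, 7.65, 6.72, 3.57 and 49.1 CPM. Only mouse 5 lay above the fat-1 PF range. That mouse also had the highest score of 6 adipocyte genes, 6.27, and the part of this in the level was not tested.

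The NADH that the ADH and ALDH reactions make is turned back to NAD by lactate dehydrogenase and by the malate-aspartate and glycerol phosphate shuttles. Of 12 genes of these routes, 11 were tested, and in fat-1 mice 7 were lower and 1 higher with EtOH (median -1.05). Mdh2 fell by 2.22 (SE 0.24), Mdh1 by 1.47 (SE 0.18), the malate carrier gene Slc25a11 by 1.24 (SE 0.17) and Ldha by 1.05 (SE 0.15) on the log2 scale. Mdh2 was at 533 CPM or more in PF mice and at 405 CPM or less in EtOH-fed mice. Ldhb, the heart-type lactate dehydrogenase subunit, rose by 0.77 (SE 0.15). Without the 5 libraries 6 of 12 were lower and 0 higher by edgeR, with 7 at an unadjusted p under 0.05. In WT mice 0 were called by edgeR, 6 had an unadjusted p under 0.05 and DESeq2 called 3, where it called 1.77% of all genes, and the extremes were Mdh2 at -1.26 and Ldhb at 0.56.

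Catalase takes its hydrogen peroxide from peroxisomal oxidases, which are brought into the organelle by import proteins. Of 10 such genes, all tested, 6 were lower and 1 was higher with EtOH in fat-1 mice (median -0.64). The import genes Pex14 and Pex5 fell by 0.60 (SE 0.09) and 0.83 (SE 0.13), and the amino acid oxidase genes Pipox and Dao by 2.10 (SE 0.45) and 3.48 (SE 0.81), on the log2 scale. Hao2, a hydroxyacid oxidase gene, rose by 5.29 (SE 1.35), from 0.123 to 4.65 CPM in fat-1 PF to 9.22 to 220.1 CPM in fat-1 EtOH mice, where mice 3 and 4 held the highest levels. Without the 5 libraries 5 were lower and 1 was higher. In WT mice 0 were called by edgeR and by DESeq2, with 3 at an unadjusted p under 0.05 by edgeR, and the extremes were Dao at -1.75 and Hao2 at 3.06.

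The genes whose levels were most like those of each enzyme gene were sought by the Pearson correlation of log2 CPM over the 16 libraries, which share the 2 diets and the region differences above. Adh6a was closest to Apoa4 (r = 0.993), Apoc3 (0.992) and Slc2a7 (0.992), and the first 2 of these, lipoprotein genes of the absorbing enterocyte, are on the proximal list. Adh1 was closest to Gstm6 (0.990), Casp6 (0.989) and Tmem135 (0.988), Adh4 to Ckmt1 (0.981), Pex5 (0.977) and Bpnt1 (0.977), and Cat to Nmnat3 (0.969), Phyh (0.968) and Gde1 (0.960). For Adh5 the nearest were Cd63 (0.968), Ppa2 (0.968) and Clybl (0.959), and for Aldh1b1 Sacm1l (0.941), Vps33b (0.927) and Naip5 (0.926). The other 3 genes had looser neighbours: Repin1, Col4a6 and Kank1 for Acss2 (0.882, 0.879 and 0.874), Cdc5l, March2 and Ube2e2 for Aldh1a1 (0.873, 0.871 and 0.865) and Cwh43, Ndrg1 and Nmnat2 for Aldh2 (0.814, 0.810 and 0.808). Among the 9 genes themselves, Adh1 and Cat were the most alike (0.933), ahead of Adh4 and Adh6a (0.895), and Adh5 and Aldh1b1 the most opposed (-0.826). Adh1 and Adh6a, neighbours on the chromosome, had r = 0.644. They differed in fat-1 EtOH mice 3 and 4, where Adh1 was above and Adh6a below the other EtOH-fed mice.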

How the data were processed

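RNA-seq libraries of the terminal ileum of 16 mice, 1 per mouse, were analysed from the deposited table of raw read counts per Ensembl gene, which is not normalized. The authors aligned reads with tophat2 2.0.13 to mm10, guided by Ensembl build 82, and counted them with htseq; its strand setting and version are not given in the sources used here. Symbols, positions and exon lengths came from GENCODE M21 (GRCm38), which lacks 26 of the 21965 genes, and promoter windows from RefSeq.

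Counts were filtered with filterByExpr (13811 genes left), scaled by TMM and fitted with 1 mean per group in edgeR 4.0.16 (R 4.3.3). Groups were compared with its robust quasi-likelihood test and Benjamini-Hochberg adjustment over all genes at 0.05, as the unit is counts and cuffdiff2 needs reads. For single genes an exact permutation test was run on log2(CPM + 0.5). The method was also run on simulated counts without region differences between mice, so that this run does not bear on such differences. Libraries held 8422645 to 11438539 counts. The labels do not name litters or batches. P-values of edgeR rest on 1 spread between mice per gene, shared by all groups in the fit. Those of the permutation test use only the 2 groups compared. Log2 CPM used a prior count of 2.

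The genes and lists were chosen with earlier results of these data known. All 10 genes are named; of each other list, up to 4 called genes by smallest p and the largest change in each direction (the 3 nearest genes by correlation). Alternatives were DESeq2 1.42.0, limma 3.58.1 voom with quality weights, other scalings and filters, only the groups compared, a replicate block, and each mouse left out. Leaving out libraries by their region genes and the transcript length were chosen after seeing the data.

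Replicate numbers were not taken to pair mice: the labels name no shared animal or day, and deviations of same-numbered mice had a mean correlation of -0.0225 over 21 pairs. Other steps used python 3.11.15 and matplotlib 3.10.9.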

Additional observations from a re-analysis of the deposited data

Results flagged for a closer look

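Among the 5 fat-1 EtOH mice, mouse 3 stood apart for Adh7, at 0.164 CPM where the other 4 mice were at 0. That level is 2 counts, below the floor of 3 counts. It was the only one of 30 tests of a gene in a group of 4 or 5 mice in which a single mouse stood apart by Dixon's criterion, and chance gives about 0.05 of such tests. As the other 4 values were exactly 0, any count in mouse 3 would have met the criterion. The test therefore decides nothing for Adh7.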

How the results depend on the processing

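Fits were run without fat-1 PF mice 2 and 4 and the 3 EtOH libraries with large intestine genes (5 left out), or without those 3 alone (3 left out). Fold changes of several enzyme genes moved there, and the cause was not tested. In fat-1 mice, genes called with EtOH (5170) were 1626 with 5 left out and 3086 from only the groups compared; the calls of Adh1, Adh4, Adh6a and Cat were kept in all but the stated settings, a stricter filter removing Adh4 and the 5 left out ending Cat. In WT mice (11) they were 245 by DESeq2, 2800 by limma voom, 2 with a looser and 0 with a stricter filter, 1103 from only the groups compared, 26 with 3 left out, 468 with 5 left out and 0 to 66 without each mouse in turn. Enzyme genes called there (0) were 2 by DESeq2, 2 by limma voom, 1 from only the groups compared (Cat) and 1 with 5 left out (Adh6a). Between PF groups (0 genes) DESeq2 called 147, limma voom 31 and single mice left out 0 to 114; enzyme genes called were 1 by DESeq2 and 0 to 1 without each mouse (Cat without fat-1 PF mouse 1). Between EtOH groups (1 gene) DESeq2 called 5, only the groups compared 0, and single mice left out 0 to 1.

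With the replicate number as a block, genes called with EtOH were 18 in WT mice and 0 between EtOH groups, and 4 enzyme genes in fat-1 mice; no call of an enzyme gene changed.

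Values that turned direction were all uncalled with all libraries; Adh5 in fat-1 mice was called in the turned direction with 3 left out (adjusted p = 0.0318). Between PF groups, Aldh2 was -0.0094 and Acss2 -0.024 by upper-quartile scaling and Acss2 -0.10 with 5 left out; without each mouse in turn Aldh2 was -0.025 to 0.12 and Acss2 -0.043 to 0.16. With EtOH in WT mice, Aldh1b1 was 0.11 and Aldh2 -0.095 with 3 left out and 0.12 and -0.085 with 5 left out; without each mouse Aldh1b1 was -0.21 to 0.11, Aldh2 -0.095 to 0.13, Adh5 -0.29 to 0.0083 and Acss2 -0.032 to 0.51. With EtOH in fat-1 mice, limma voom gave Adh5 -0.29, Aldh1a1 -0.061, Aldh1b1 0.20 and Aldh2 -0.018. With 3 left out these were -0.43, -0.24, 0.18 and -0.038, and with 5 left out Adh5 was -0.23, Aldh1a1 -0.11 and Aldh2 -0.059; without each mouse Aldh1a1 was -0.022 to 0.30 and Aldh1b1 -0.30 to 0.0089. The interaction turned with 5 left out for Adh4 (0.74), Cat (0.041) and Acss2 (0.26 to -0.25), and with 3 left out for Acss2 (-0.35), Adh5 (0.31 to -0.14) and Aldh1b1 (-0.08 to 0.07). Depth limits Adh4 and Adh7 in EtOH-fed mice, where most libraries held 0 or 1 count.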
